A study of Mus musculus with 10 samples.

Results

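ER-Hoxa9-Lys-GFP cells that had been 72 h without estradiol (E2) and then 48 h with it again were compared with cells held without it for 120 h. The comparison used every library with those treatment labels, 2 per group and 4 of the 10 in the series. ER-Hoxa9-Lys-GFP is a cultured mouse line of the C57BL/6 strain in which the homeobox protein Hoxa9 is fused to the hormone-binding domain of the estrogen receptor. RPMI medium carried serum and a supplement conditioned with stem cell factor (SCF), and PBS washes removed E2. The other groups, used here for reference, also had 2 libraries each: untreated cells kept in E2, and cells 24 h or 40 h off E2 followed by 96 h or 80 h back on it. All withdrawn cultures therefore ran for 120 h, and by their labels the 72h and 120h groups differed only in whether E2 returned for the last 48 h. The series asked, by its title, at what point commitment to myeloid differentiation becomes irreversible. No library taken at 72 h without add-back was analysed here. A transcript that climbed by 72 h and fell after E2 returned, and a transcript that never climbed, cannot be told apart. Libraries of a group are numbered 1 and 2 in their titles, with nothing to say that they were grown separately. The p-values are thus set by the differences between the 2 libraries of a group, pooled over all 5 groups, and their source may be technical.

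As background, Hoxa9 holds early myeloid cells in a self-renewing state, and the fusion protein works only while E2 is bound. When it is switched off, such progenitors stop dividing and mature. Neutrophil proteins are made in a fixed order: primary granule proteases in the promyelocyte, secondary granule proteins next, and the receptors and calprotectin of the mature cell last. Monocytes share the early steps and then take up their own receptors and lysosomal enzymes.

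The values were RPKM (reads scaled to transcript length and to the size of the library), and the recovered denominators were 173620000 to 204390000 reads per library. Differences are 72h minus 120h in log2(RPKM + 1), so a positive value means higher with add-back, and the added 1 understates the change of weakly expressed genes. A gene was called at a Benjamini-Hochberg adjusted p under 0.05 in limma. The median absolute difference between the replicates of a group was 0.12 (log2) at 72h and 0.25 at 120h, against 0.06 in the untreated group, so the 120h pair was the least alike. Mitochondrially encoded genes held 2.59 and 3.06% of the coding RPKM in the 72h libraries and 1.99 and 1.73% in the 120h libraries. The 10 most abundant genes held 7.01 and 6.49% at 72h and 11.4 and 10.9% at 120h. The part of these shares in the results was not tested. Progenitor markers were present in the untreated cells, where Cd34 stood at 869 and 830.0 RPKM, Kit at 152 and 158 and Mpo at 2042 and 2433. Those cells also carried Flt3 at 257 and 250.1 and the lymphoid genes Igll1 at 163 and 141 and Rag2 at 30.5 and 28.7.

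In the add-back cells, most transcripts of primary granules, S phase and ribosome assembly were higher than in continuously withdrawn cells, and most of those of secondary granules, mature neutrophils, macrophages and the interferon response were lower. Of 13004 genes tested, 6636 (51%) were called higher in the 72h group and 3435 (26.4%) lower. With a threshold of 2-fold added, 2587 (19.9%) were higher and 1689 (13%) lower. The median over all genes was 0.32. Median-of-ratios scaling lowered that median by 0.34 to -0.02 and gave 4352 higher and 4997 lower calls, so that 46.6% of calls were higher in place of 65.9%. Quantile normalization lowered the median to 0.15. Small differences therefore depend on the scaling, and every list below is read against the median of all genes.

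**Figure D1:**
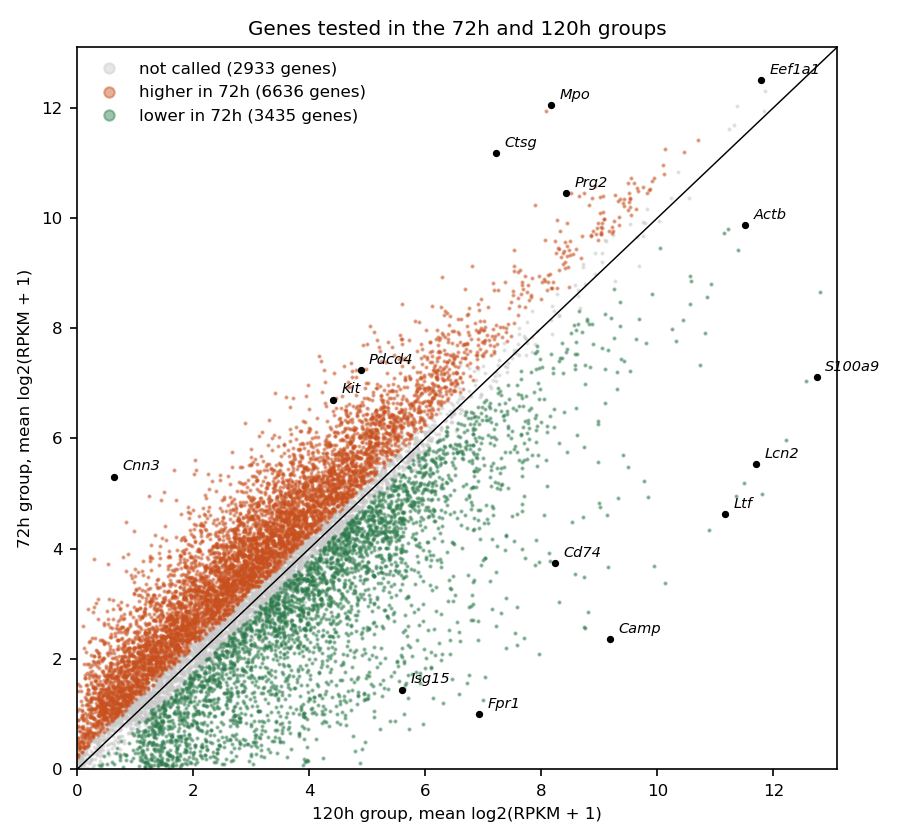
Mean log2(RPKM + 1) of the 2 libraries of the 120h group (horizontal axis) and of the 72h group (vertical axis) for the 13004 genes tested, coloured by call, with the line of equality. The 6636 genes called higher lie above the line and the 3435 called lower lie below it, and S100a9, Lcn2, Ltf, Camp and Fpr1 are far below.

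The 72h group did not simply lie between the untreated and the 120h cells. Among the 2587 genes at least 2-fold higher than at 120h, 893 (34.5%) had both 72h libraries between the untreated and the 120h libraries and 522 (20.2%) overlapped the untreated range. The other 1172 (45.3%) had both libraries above every untreated and 120h library. Over all genes tested, 2974 (22.9%) lay between and above 120h, 1443 (11.1%) overlapped the untreated range and were above 120h, and 2846 (21.9%) lay above both groups. Among the 1689 genes at least 2-fold lower, 893 (52.9%) lay between, 231 (13.7%) overlapped the untreated range and 564 (33.4%) lay below both groups. Over all genes tested, 1794 (13.8%) lay between and below 120h, 554 (4.26%) overlapped the untreated range and were below 120h, and 1490 (11.5%) lay below both. In 1 of the 1689 lower genes the 72h range overlapped the 120h range. The shares over all genes also count genes that overlapped 120h (1903, 14.6%) or lay on its other side. They are therefore not a like base for genes chosen as higher or lower. Of all genes above 120h, 2846 lay above both groups and 2974 between. Of all genes below 120h, 1490 lay below both groups and 1794 between.

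**Figure D2:**
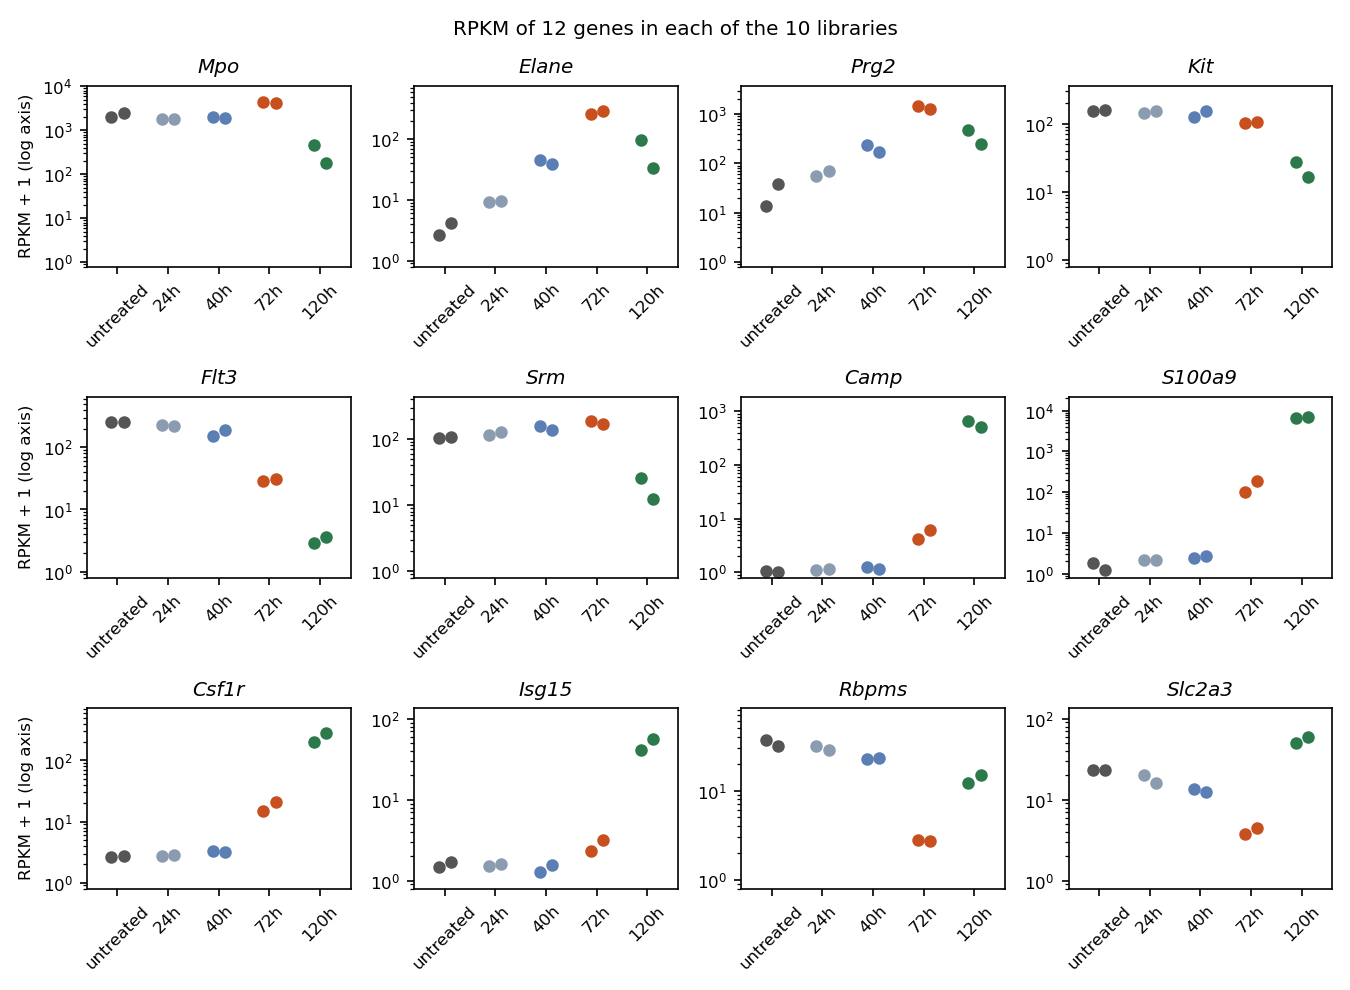
RPKM + 1 on a log axis for 12 genes, with a point per library and the libraries grouped by treatment. Mpo, Elane, Prg2 and Srm peak in the 72h libraries, Camp, S100a9, Csf1r and Isg15 are highest at 120h, Kit and Flt3 lie between untreated and 120h, and Rbpms and Slc2a3 are lowest at 72h.

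Most primary granule genes were higher with add-back. Of 13 measured, 11 were higher at 72h than at 120h and 2 lower, with a median of 1.50. In 9 of them the 72h libraries lay above both the untreated and the 120h libraries, as in 2846 (21.9%) of all genes tested. Mpo, the myeloperoxidase that makes hypochlorous acid, stood at 4334 and 4137 RPKM in the 72h libraries and 463 and 178 at 120h, with 2042 and 2433 in untreated cells. The 72h libraries were the highest of all 10 and the 120h libraries the lowest (log2 difference 3.88, SE 0.38, adjusted p = 3.4e-05). Ctsg, which encodes the serine protease cathepsin G, was at 2434 and 2208 against 231 and 95.6 (log2 difference 3.95, SE 0.35, adjusted p = 1.8e-05). Elane, neutrophil elastase, was at 1.68 and 3.19 in untreated cells, 8.25 and 8.59 after 24 h off E2 and 44.6 and 37.5 after 40 h, each with add-back. It reached 262 and 295 at 72h and was 94.0 and 32.2 at 120h (log2 difference 2.31, SE 0.42, adjusted p = 0.0011). Prtn3, proteinase 3, was also highest at 72h, with 289.9 and 323, 1455 and 1329.8 and 556 and 235 in the untreated, 72h and 120h libraries (log2 difference 1.94, SE 0.34, adjusted p = 8.5e-04). In these 4 genes the lower 120h value was always that of replicate 2, and the ranges of the 2 groups did not overlap.

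The members of the primary granule list that were lower at 72h were Fcnb, which encodes ficolin-B, a lectin of the lectin complement pathway, and Igsf6, a surface protein. Fcnb stood at 46.1 and 69.5 with add-back and 535 and 336 without (-2.88), and Igsf6 at 57.6 and 61.2 and 186 and 228 (-1.78). Cst7, the cathepsin inhibitor cystatin F, was at 155 and 148 against 44.6 and 20.8 (2.27). The summed RPKM of the list was 5406 and 5902 in untreated cells, 12029 and 10952 at 72h and 3629 and 2069 at 120h. In bulk RNA, fewer cells of a type and less of its RNA per cell cannot be told apart. Gm11505, a long noncoding gene of the opposite strand (chromosome 11, 87795784 to 87801144 on the minus strand), lies within Mpo (chromosome 11, 87793581 to 87804413 on the plus strand, GRCm38, GENCODE M21). It stood at 4008 and 3798 at 72h and 436 and 165 at 120h, close to the Mpo values in every library of these groups. Whether counting used strand is not given in the sources used here, so reads of the pair cannot be told apart.

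Secondary granule genes had the opposite pattern. Of 19 listed, 18 passed the filter on low values, and 17 of those were lower at 72h, none higher, with a median of -4.46. Their summed RPKM was 472 and 489 untreated, 1429 and 1563 at 72h and 23695 and 20177 at 120h. Camp, the cathelicidin antimicrobial peptide, stood at 3.28 and 5.18 with add-back and 668 and 509 in continuous withdrawal (log2 difference -6.83, SE 0.18, adjusted p = 1.8e-07), and at 0.0650 and 0.0280 in untreated cells. Ltf, lactoferrin, was at 16.6 and 33.9 against 2188 and 2405 (log2 difference -6.53, SE 0.26, adjusted p = 4.8e-07). Ngp, neutrophilic granule protein, was at 22.7 and 41.4 against 3846 and 3347 (log2 difference -6.82, SE 0.24, adjusted p = 3.3e-07). For these 3 genes the 72h libraries stood above all untreated, 24h and 40h libraries and far under both 120h libraries. Lcn2, the siderophore-binding lipocalin, was close to its starting level with add-back, with 32.0 and 37.5 untreated, 43.2 and 47.5 at 72h and 3405 and 3248 at 120h (log2 difference -6.17, SE 0.10, adjusted p = 5.3e-08). Chil3, a chitinase-like lectin, was at 349 and 462 against 8692 and 5850.5 (-4.15) and 1.33 and 0.531 in untreated cells. Serpinb1a, an inhibitor of the granule proteases, was the member not called, at 471 and 411 and 485 and 297 (0.21 with SE 0.21 and adjusted p = 0.38). It was called higher without 120h replicate 1 (0.57).

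The promoters of the Ngp and Ltf genes are shown because both genes lie in this group and hold matches to the C/EBP motif, the site type bound by the C/EBP factors of granulocytes. The sequences are RefSeq promoters of GRCm38.p6, 250 bases before to 50 after the start, 5′ to 3′ on the gene's strand, with matches to TTGCNNAA on either strand in capitals. Ngp (chr9:110419558-110419857, plus strand) held 2 matches and Ltf (chr9:111019042-111019341, plus strand) held 1.
Ngp: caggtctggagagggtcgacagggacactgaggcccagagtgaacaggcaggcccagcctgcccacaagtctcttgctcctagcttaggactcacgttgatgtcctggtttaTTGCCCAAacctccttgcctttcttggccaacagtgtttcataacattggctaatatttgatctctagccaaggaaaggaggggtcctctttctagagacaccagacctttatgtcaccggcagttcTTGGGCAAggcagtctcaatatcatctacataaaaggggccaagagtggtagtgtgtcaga
Ltf: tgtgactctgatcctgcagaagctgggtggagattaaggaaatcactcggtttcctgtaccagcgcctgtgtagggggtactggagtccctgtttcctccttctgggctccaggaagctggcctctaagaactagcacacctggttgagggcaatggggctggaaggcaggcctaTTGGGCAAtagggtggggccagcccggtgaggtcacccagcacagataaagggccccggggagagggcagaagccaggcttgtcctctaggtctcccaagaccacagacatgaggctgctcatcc
Promoters were found for 8859 of the 13004 genes tested. The motif was in 6 of 13 (46.2%) secondary granule promoters, in 8.39% of all those tested and in 10.7% of all 27025 promoters in the table. It was in 7.77% of promoters of genes at least 2-fold higher at 72h and 11.8% of those at least 2-fold lower. Other lists also held it above the share of all tested. Among them were 3 of 12 (25.0%) primary granule promoters, from a list mostly higher at 72h, and 6 of 26 (23.1%) late neutrophil promoters. It was also in 2 of 7 (28.6%) leukotriene and prostaglandin promoters and 2 of 5 (40.0%) estrogen receptor target promoters. These are counts of letters, not of bound sites.

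All 31 of the late neutrophil genes that passed the filter, of 32 listed, were lower at 72h, with a median of -3.81. S100a9 and S100a8, which pair as calprotectin, were at 99.2 and 191 and at 99.3 and 173 with add-back. At 120h they were at 6761 and 7027 and at 6385 and 5695, with differences of -5.64 and -5.51. Untreated cells held 0.848 and 0.262 for S100a9, so both 72h libraries had left the starting level and neither approached the 120h range. Mmp9, the gelatinase of tertiary granules, was at 4.71 and 8.10 against 379.6 and 528 (log2 difference -5.96, SE 0.22, adjusted p = 3.6e-07). Fpr1 and Fpr2, receptors for formylated bacterial peptides, were at 0.698 and 1.33 and at 1.07 and 1.75 at 72h against 97.7 and 149.9 and 101 and 157 (-5.94 and -5.74). The stefin protease inhibitors Stfa1, Stfa2, Stfa3 and Stfa2l1 differed by -6.25, -6.27, -6.75 and -6.55. Their sequences are near-identical, so each is uncertain as a separate gene. Within the 72h pair, replicate 2 had the higher value for S100a9, Mmp9, Fpr1 and all 4 stefins. The summed RPKM of this list was 928 and 1164 at 72h, 25972 and 26122 at 120h and 311 and 371 untreated.

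Lyz2, the lysozyme gene of myeloid cells, stood at 0.210 and 0.426 at 72h and 2.68 and 4.29 at 120h (log2 difference -1.75, SE 0.17, adjusted p = 2.9e-05). That is near 0 in add-back cells and low at 120h, and the gene passed the filter only through the 120h libraries. The line is named Lys-GFP, and whether its reporter alters the Lyz2 transcript was not tested. These values may therefore not show the level of an unmodified gene. Its neighbour Lyz1, looked up after the values were seen, was at 21.1 and 63.2 and 745 and 1012 (log2 difference -4.53, SE 0.41, adjusted p = 2.0e-05). The 2 genes are close in sequence and some reads may be shared between them.

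The genes of monocytes and macrophages were lower with add-back as a group, but with exceptions. Of 34 listed, 28 passed the filter, and 24 were lower and none higher (median -2.81). Csf1r, the receptor for macrophage colony-stimulating factor, stood at 1.61 and 1.70 untreated, 14.2 and 20.2 at 72h and 199 and 285 at 120h (log2 difference -3.74, SE 0.19, adjusted p = 1.3e-06). Cd14, the lipopolysaccharide co-receptor, was at 12.8 and 17.5 against 190.2 and 213 (-3.66), and Lgals3, galectin-3, at 10.4 and 14.9 against 253 and 244 (-4.21). C1qb, a chain of complement C1q made by macrophages, was at 0.691 and 1.52 against 29.7 and 38.3 (-4.07). In each of these 4 genes the groups lay wide apart. Ly6c2, an antigen of inflammatory monocytes and early granulocytes, behaved otherwise, at 0.571 and 0.683 untreated, 37.6 and 25.8 at 40h, 568 and 608 at 72h and 638 and 430.0 at 120h. Its 72h and 120h ranges overlapped (0.17 with SE 0.21 and adjusted p = 0.49), so its level with add-back could not be set apart from that of continuous withdrawal. Its near-identical copy Ly6c1 may share reads with it. F13a1, coagulation factor XIII A, was likewise not called, at 341 and 329.6 and 299 and 278 (0.22), though it was called without 120h replicate 1 (0.27). Ccr2, the receptor that brings monocytes out of marrow, was at 35.8 and 47.6 and 31.6 and 38.6 (0.23, not called, but called at 0.44 without 72h replicate 1), below 113 and 111 in untreated cells.

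**Figure D3:**
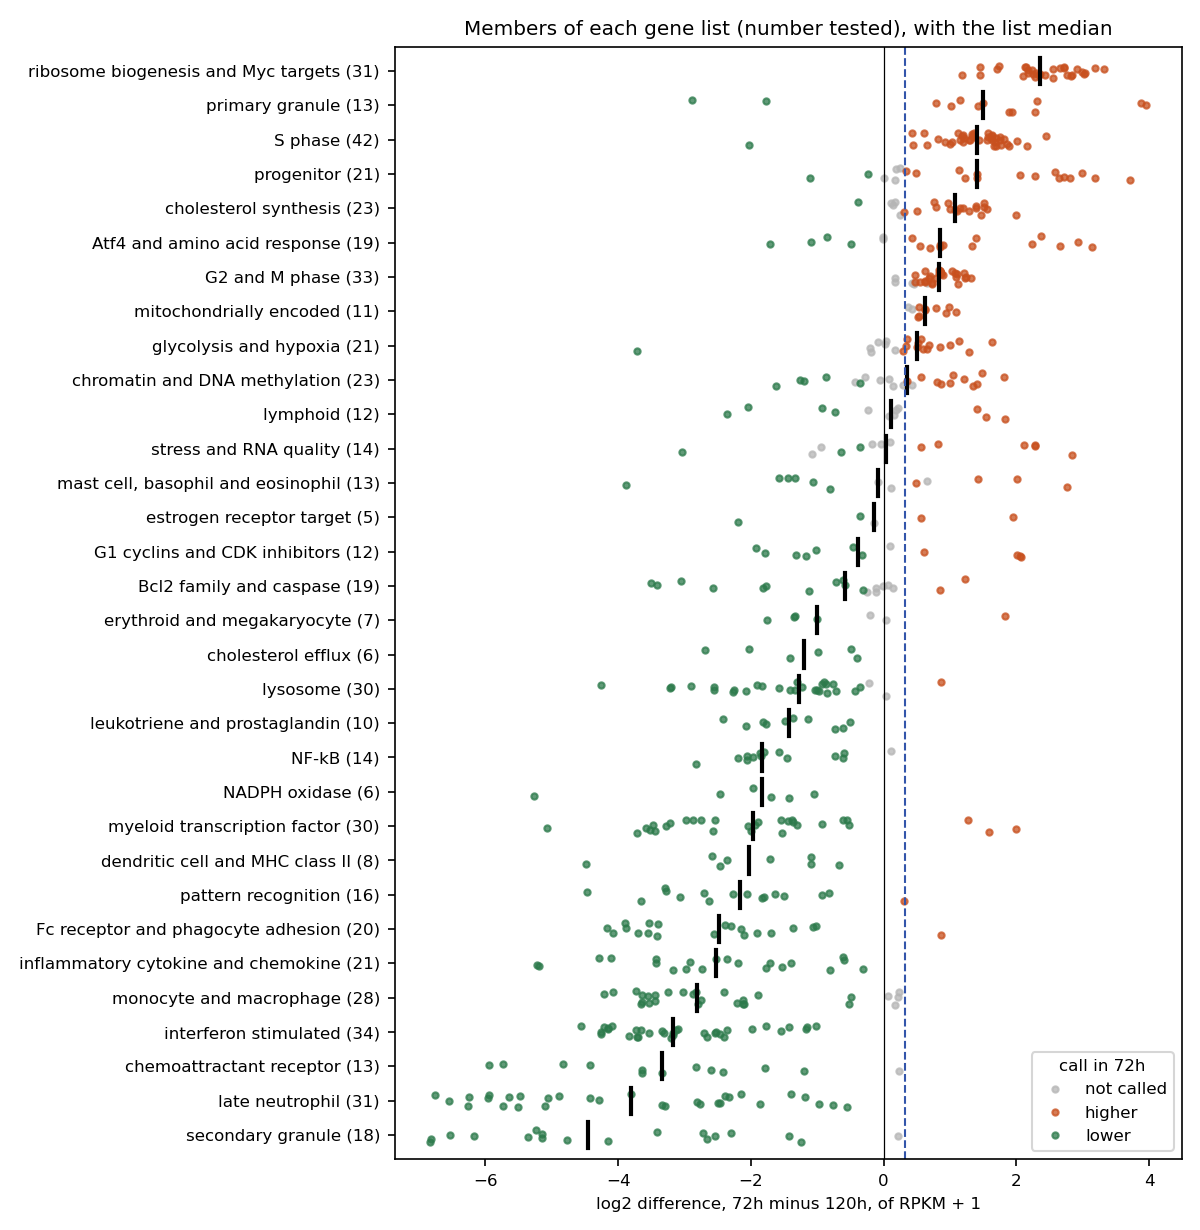
Log2 difference, 72h minus 120h, of the tested members of each gene list (number tested in brackets), with a point per gene coloured by call, the list median as a black bar and the median of all genes, 0.32, as a dashed line. Ribosome biogenesis, primary granule and S phase members lie to the right, and secondary granule, late neutrophil, chemoattractant receptor and interferon members lie to the left.

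Most progenitor genes were higher in the add-back cells, though below the untreated level. Of 26 listed, 21 passed the filter, and 15 were higher at 72h and 2 lower, with a median of 1.40. Their median stood -1.39 from untreated cells at 72h and -2.65 at 120h. Kit, the SCF receptor, was at 99.9 and 106 with add-back, 26.7 and 15.4 at 120h and 152 and 158 untreated (log2 difference 2.29, SE 0.21, adjusted p = 2.4e-05). Myb, a transcription factor needed by progenitors, was at 219 and 267 against 39.5 and 28.8 (log2 difference 2.81, SE 0.16, adjusted p = 2.3e-06), and its 72h range overlapped the untreated 235 and 244. Other members remained far under the untreated level. Flt3, a cytokine receptor of early progenitors, was at 27.3 and 29.5 at 72h, 1.88 and 2.64 at 120h and 257 and 250.1 untreated (log2 difference 3.18, SE 0.14, adjusted p = 7.7e-07). Cd34, a surface sialomucin, was at 271 and 255 at 72h and 37.6 and 27.5 at 120h (2.99). Angpt1, the secreted ligand angiopoietin-1, was at 6.51 and 6.46 and 0.141 and 0.130 against 50.1 and 54.3 untreated (2.72). Muc13, a transmembrane mucin, was at 25.9 and 34.9 and 1.72 and 1.05 (3.72).

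Meis1, the homeobox partner of Hoxa9, stood apart from Kit and Myb. It was at 1.28 and 1.19 RPKM at 72h and 0.706 and 1.10 at 120h (0.24 with SE 0.13 and adjusted p = 0.12), and at 10.6 and 11.2 untreated and 7.34 and 9.18 at 40h. Both 72h values were above both 120h values, but the difference did not pass the test, and both groups lay far below the 40h libraries. Without 120h replicate 2 it was called, at 0.39. Erg, an ETS factor of stem cells, was also not called, at 18.1 and 19.6 and 17.2 and 15.8 against 50.3 and 51.5 untreated, as was Pbx3, another Hox partner, at 4.12 and 4.20 and 3.87 and 3.36. Hoxa9 itself was at 73.4 and 102 at 72h and 94.5 and 97.9 at 120h, with overlapping ranges (-0.15 with SE 0.16 and adjusted p = 0.41). Esr1, the gene from which the hormone-binding domain comes, was at 8.74 and 11.9 and 10.9 and 11.9 (-0.14 with SE 0.15 and adjusted p = 0.4). With median-of-ratios scaling both were called lower at 72h, at -0.59 and -0.55, and Hoxa9 was also called lower without 72h replicate 2 (-0.39). Whether their reads come from the fusion construct or from the endogenous genes cannot be told apart in values per transcript, and neither value measures the activity of the fusion protein. Of 10 listed estrogen receptor targets 5 passed the filter, with 2 higher and 2 lower at 72h. Their differences ran from -2.19 to 1.95, with a median of -0.14. With median-of-ratios scaling 1 was higher and 3 lower. Igfbp4 was at 64.0 and 54.4 against 21.9 and 9.58 (1.95) and Nrip1 at 2.64 and 2.86 against 1.54 and 1.56 (0.56, not called with median-of-ratios scaling), while Greb1, Pgr, Tff1 and Cxcl12 were under the filter.

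Genes of S phase and of G2 and mitosis were mostly higher with add-back, while those of G1 were mixed. Of 42 S phase genes 41 were higher and 1 lower, with a median of 1.40, and their median difference from untreated cells was -0.01 at 72h and -1.55 at 120h. With median-of-ratios scaling 36 were higher and 1 lower. In 17 of the 42 the 72h libraries overlapped the untreated range, 15 lay between the untreated and the 120h libraries and 10 lay above both groups. Over all genes tested that lay above 120h, the numbers in the same positions were 1443, 2974 and 2846. Ung, which removes uracil from DNA, was at 21.0 and 20.6 untreated, 21.3 and 20.4 at 72h and 4.50 and 1.95 at 120h (log2 difference 2.44, SE 0.23, adjusted p = 2.8e-05). Dut, which clears dUTP, was at 73.5 and 66.0 against 22.4 and 9.77 (log2 difference 2.15, SE 0.29, adjusted p = 2.0e-04), and Exo1, a DNA exonuclease, at 8.24 and 9.16 against 2.01 and 1.28 (log2 difference 1.89, SE 0.13, adjusted p = 5.7e-06). The exception was E2f2, an E2F factor, at 3.61 and 3.84 untreated, 3.68 and 4.26 at 72h and 15.5 and 23.8 at 120h (log2 difference -2.03, SE 0.18, adjusted p = 1.6e-05). The 72h libraries of Ung and E2f2 overlapped the untreated range, whichever way the 120h libraries had gone.

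Of 33 genes of G2 and mitosis 28 were higher at 72h and none lower, with a smaller median of 0.84. Over all genes tested that lay above 120h, 2974 lay between, 1443 overlapped the untreated range and 2846 lay above both groups. In this list the numbers in those positions were 17, 10 and 3. Only 12 were called higher with median-of-ratios scaling and 17 when the spread came from the 72h and 120h groups alone, and 1 was called lower without 120h replicate 2. Bub1, a spindle checkpoint kinase, was at 33.9 and 36.3 against 17.4 and 10.5 (log2 difference 1.31, SE 0.19, adjusted p = 2.7e-04), and Ccnb1, cyclin B1, at 64.5 and 55.4 against 33.4 and 18.4 (log2 difference 1.23, SE 0.23, adjusted p = 0.0011). Ube2c, an ubiquitin-conjugating enzyme of the anaphase-promoting complex, was at 122 and 109 against 104 and 50.8 and was not called (0.66 with SE 0.27 and adjusted p = 0.055), but it was called without 120h replicate 1 (1.17) and with the replicate block. In Bub1, Ccnb1 and Ube2c the 120h libraries differed from each other by more than the 72h libraries did, with replicate 2 lower. Among 12 measured G1 cyclins, kinases and inhibitors 4 were higher and 7 lower. Cdk4 was at 232 and 207 against 66.1 and 40.1 (2.07), Cdk6 at 37.9 and 46.8 against 10.7 and 8.25 (2.05) and Ccnd2, cyclin D2, at 26.0 and 25.7 against 6.77 and 4.72 (2.01). Ccnd3, cyclin D3, went the other way, at 41.0 and 39.9 against 164 and 147 (-1.92) with 76.3 and 75.2 in untreated cells. The CDK inhibitor Cdkn2d was at 10.6 and 10.7 against 40.4 and 37.7 (-1.78), also below its untreated 21.1 and 21.0. Cdkn2a, which encodes p16 and p19Arf, was at 66.0 and 69.0 and 66.7 and 59.0 and was not called (0.10). With median-of-ratios scaling it was called lower (-0.33), and without 120h replicate 1 its difference was 0.19.

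The Ccnb1 promoter (chr13:100786437-100786736, minus strand) is shown as an example of the CCAAT box (the NF-Y motif, searched as CCAAT on either strand), which held 2 matches, in capitals.
Ccnb1: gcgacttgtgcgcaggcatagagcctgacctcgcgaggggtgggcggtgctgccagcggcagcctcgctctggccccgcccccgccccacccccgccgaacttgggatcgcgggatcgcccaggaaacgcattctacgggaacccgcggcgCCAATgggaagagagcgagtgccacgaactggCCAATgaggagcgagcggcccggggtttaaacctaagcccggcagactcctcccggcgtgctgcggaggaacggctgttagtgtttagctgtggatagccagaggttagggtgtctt
CCAAT was in 22 of 27 (81.5%) promoters of the G2 and mitosis list and in 14 of 16 (87.5%) of the cholesterol synthesis list, against 39.5% of all tested and 37.9% of all in the table. It was also in 7 of 10 (70.0%) stress promoters. The E2F motif TTTCCCGC was in 6 of 33 (18.2%) S phase promoters and in 2.29% of those tested. The E-box CACGTG, a site type of Myc, was in 5 of 24 (20.8%) ribosome biogenesis promoters, in 10.5% of those tested, in 13.6% of genes at least 2-fold higher and in 8.75% of genes at least 2-fold lower. It was in larger shares of other lists, among them 8 of 23 (34.8%) lysosomal promoters, 3 of 10 (30.0%) stress promoters and 5 of 22 (22.7%) promoters of myeloid transcription factors, and genes of the lysosomal and transcription factor lists were mostly lower at 72h.

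Ribosome biogenesis genes moved together. All 31 genes, which include Myc targets, were higher at 72h by at least 2-fold, with a median of 2.35, and 26 lay above both the untreated and the 120h libraries. Their median difference from untreated cells was 0.44 at 72h and -2.13 at 120h. Of all genes tested, 2846 (21.9%) lay above both groups. Srm, spermidine synthase, was at 102 and 105 untreated, 188 and 169 at 72h and 24.8 and 11.6 at 120h (log2 difference 3.32, SE 0.28, adjusted p = 1.3e-05). Odc1, ornithine decarboxylase, the entry step of polyamine synthesis, was at 171 and 164 against 24.3 and 12.5 (log2 difference 3.19, SE 0.24, adjusted p = 7.9e-06). Nolc1, a nucleolar phosphoprotein, was at 151 and 148 against 22.5 and 14.5 (2.98), and Dkc1, the enzyme that forms pseudouridine in ribosomal RNA, at 108 and 104 against 16.2 and 9.02 (3.02). Cad, the first enzyme of pyrimidine synthesis, was at 69.0 and 60.6 against 11.0 and 5.43 (2.91). Myc, looked up after the values were seen, was at 187 and 189 untreated, 205 and 215 at 72h and 42.4 and 22.6 at 120h (log2 difference 2.72, SE 0.23, adjusted p = 1.6e-05). In all 6 of these genes both 72h libraries lay above both untreated libraries and many-fold above both 120h libraries.

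Interferon stimulated genes were all lower with add-back. Of 35 listed, 34 passed the filter, and every one of them was at least 2-fold lower at 72h, with a median of -3.18. Their summed RPKM was 238 and 238 untreated, 165 and 227 at 72h and 1618 and 2343 at 120h. Isg15, a ubiquitin-like modifier, was at 1.31 and 2.20 against 40.7 and 55.4 (log2 difference -4.16, SE 0.20, adjusted p = 9.9e-07). Ifit3, which binds foreign RNA with its relatives, was at 1.63 and 3.28 against 47.2 and 73.5 (log2 difference -4.16, SE 0.25, adjusted p = 2.5e-06), and Oasl2, an oligoadenylate synthetase-like protein, at 2.00 and 5.01 against 56.3 and 106 (log2 difference -4.21, SE 0.35, adjusted p = 1.3e-05). Ifi27l2a was at 2.83 and 5.71 against 94.2 and 150.4 (-4.57). In all 4 genes replicate 2 was the higher in both groups, and the groups did not overlap. Of the 34, 22 lay between the untreated and the 120h libraries, 7 overlapped the untreated range and 5 lay below both groups. Over all genes tested that lay below 120h, the numbers in the same positions were 1794, 554 and 1490. Genes below both groups were thus fewer beside those between in this list than over all genes below 120h. The Isg15 promoter (chr4:156200769-156201068, minus strand) carries 3 overlapping matches to the IRF motif GAAANNGAA in a run shown in capitals.
Isg15: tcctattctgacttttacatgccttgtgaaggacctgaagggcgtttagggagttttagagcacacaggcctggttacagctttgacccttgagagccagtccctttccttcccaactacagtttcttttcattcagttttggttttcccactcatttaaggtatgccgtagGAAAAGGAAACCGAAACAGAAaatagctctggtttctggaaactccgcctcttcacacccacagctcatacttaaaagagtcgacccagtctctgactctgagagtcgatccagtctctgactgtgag
GAAANNGAA, on either strand, was in 15 of 23 (65.2%) promoters of the list, 7.53% of all tested, 8.56% of all in the table, 13.4% of genes at least 2-fold lower and 6.98% of genes at least 2-fold higher. Of the other lists, only the 3 NADPH oxidase promoters found had a larger share, 2 of 3 (66.7%).

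**Figure D4:**
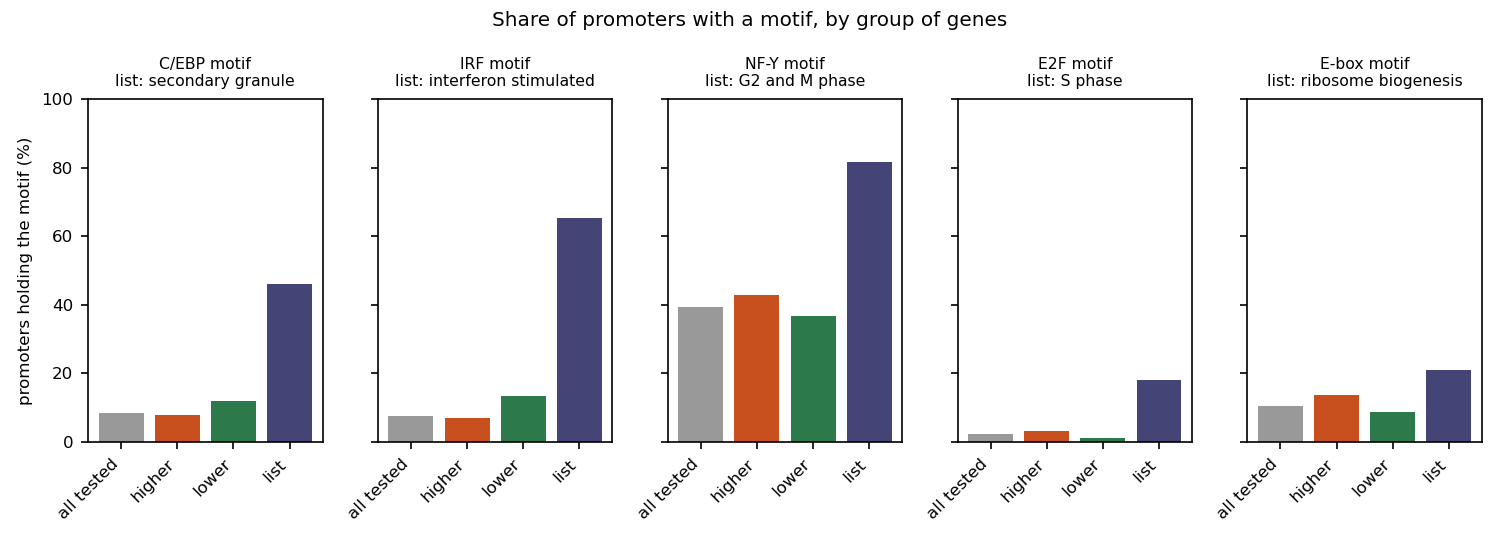
Percent of promoters holding each of 5 motifs on either strand among all tested genes, genes at least 2-fold higher at 72h, genes at least 2-fold lower, and the members of 1 gene list. The list bar is the tallest in every panel, at 46.2% for the C/EBP motif, 65.2% for IRF and 81.5% for NF-Y, but lists not drawn held the NF-Y, IRF and E-box motifs in larger shares.

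The machinery by which phagocytes kill and sense microbes was likewise lower with add-back. All 6 NADPH oxidase genes were lower (median -1.83), but unevenly. Cybb, the catalytic subunit in the membrane, was at 0.0850 and 0.0490 untreated, 5.40 and 9.45 at 72h and 289.6 and 341 at 120h (log2 difference -5.27, SE 0.20, adjusted p = 4.2e-07). Its partner Cyba was at 164 and 186 already in untreated cells, 243 and 209 at 72h and 644 and 571 at 120h (log2 difference -1.42, SE 0.12, adjusted p = 1.4e-05). The cytosolic subunits Ncf1 and Ncf4 differed by -2.47 and -1.97, and the GTPase Rac2 by -1.05. All 6 lay between the untreated and the 120h libraries. Of all genes tested, 1794 (13.8%) lay between and below 120h. Cybb, nearly absent from untreated cells, had the widest gap between the groups.

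Of 20 Fc receptor and adhesion genes 19 were lower (median -2.47). Itgam, the CD11b integrin chain, was at 21.4 and 35.1 against 445 and 583 (log2 difference -4.17, SE 0.21, adjusted p = 1.3e-06) and Fcgr4, a receptor for IgG, at 2.03 and 2.76 against 38.9 and 47.2 (-3.70). The member called higher was Pecam1 at 0.86, which was not called higher with median-of-ratios scaling. Of 13 chemoattractant receptors 12 were lower, and Ccr2 was not called. C5ar1, the C5a receptor, was at 1.03 and 1.97 against 65.4 and 72.4 (log2 difference -4.83, SE 0.16, adjusted p = 2.9e-07), and Cxcr2, which draws neutrophils to chemokines, at 1.26 and 1.64 against 46.3 and 56.8 (-4.42). Of 16 pattern recognition genes 15 were lower. Tlr2 was at 5.41 and 6.95 against 142 and 176 (log2 difference -4.48, SE 0.14, adjusted p = 2.5e-07) and Nlrp3, an inflammasome sensor, at 2.37 and 3.87 against 29.5 and 50.3 (-3.29). Tlr4, the receptor for lipopolysaccharide, was the exception, at 1.09 and 1.09 untreated, 24.0 and 24.6 at 72h and 20.3 and 18.6 at 120h. Its difference of 0.31 with SE 0.09 and adjusted p = 0.0097 was close to the median of all genes, 0.32. With median-of-ratios scaling, which lowers that median by 0.34, it was -0.11 and not called. It was also not called with quantile normalization, with array weights or when the spread came from the 72h and 120h groups alone. Pecam1 and Tlr4 were named after their values were seen.

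All 21 measured cytokine and chemokine genes, of 27 listed, were lower at 72h (median -2.53). Il1b, interleukin-1 beta, was at 0.794 and 2.69 against 63.7 and 141 (log2 difference -5.22, SE 0.39, adjusted p = 7.8e-06), Ccl6 at 2.26 and 5.46 against 132 and 209.8 (-5.19) and Ccl2, a monocyte chemoattractant, at 2.11 and 3.99 against 64.1 and 90.7 (-4.29). Of 14 NF-kB genes 13 were lower. Relb, a subunit of the noncanonical pathway, was at 2.59 and 2.71 untreated, 1.33 and 1.75 at 72h and 14.5 and 19.9 at 120h (-2.83), and Nfkbia, an inhibitor that NF-kB itself induces, was at 11.6 and 11.8, 10.1 and 12.6 and 49.9 and 60.9 (-2.19). At 72h Relb stood below both other groups and Nfkbia overlapped the untreated range. All 10 leukotriene and prostaglandin genes were lower (median -1.43), among them Alox5ap, the 5-lipoxygenase activating protein, at 215 and 206 against 896 and 878 (-2.07).

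Of 34 myeloid transcription factors listed 30 passed the filter, and 27 were lower with add-back and 3 higher, with a median of -1.97. Id2, an inhibitor of E proteins, was at 4.68 and 3.94 untreated, 3.39 and 5.91 at 72h and 157 and 217 at 120h (log2 difference -5.08, SE 0.23, adjusted p = 7.7e-07). Egr1, an immediate early factor tied to monocyte fate, was at 3.97 and 4.75, 2.62 and 4.89 and 40.6 and 66.6 (log2 difference -3.52, SE 0.33, adjusted p = 2.5e-05). Klf2 and Klf6 were at 0.427 and 0.478 and at 5.26 and 6.96 at 72h against 14.6 and 18.3 and 69.4 and 82.6 (-3.58 and -3.44). The factors that were higher at 72h were Gfi1 (1.99), Tfec (1.58) and Cebpa (1.28), and all 3 stayed higher with median-of-ratios scaling. Gfi1, a repressor needed for granulocytes, was at 52.2 and 55.4 untreated, 75.5 and 94.8 at 72h and 25.1 and 16.7 at 120h. Cebpa, the C/EBP factor of early granulocyte commitment, was at 55.0 and 56.2, 39.5 and 37.8 and 17.9 and 13.2. Cebpe, the family member of the secondary granule stage, had the reverse order, at 6.80 and 7.60, 41.6 and 36.3 and 132 and 98.0 (log2 difference -1.53, SE 0.19, adjusted p = 1.3e-04). Spi1, which encodes PU.1, was at 39.8 and 38.9, 69.4 and 68.4 and 185 and 175 (-1.37). Gfi1, Cebpa, Cebpe and Spi1 were named after their values were seen.

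**Figure D5:**
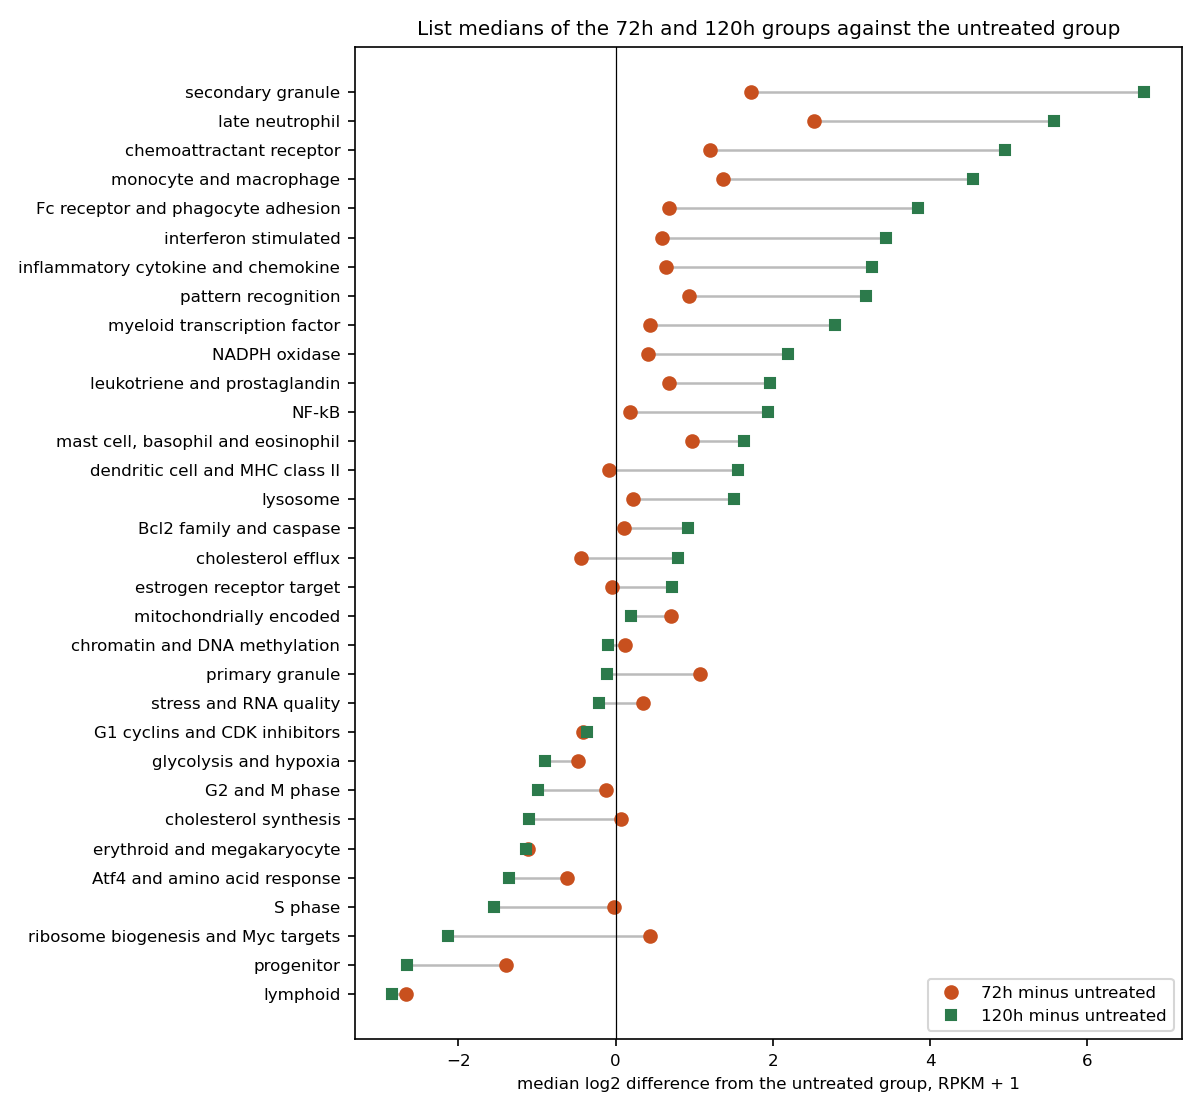
Median log2 difference from the untreated group of each list's tested members in the 72h group (circles) and in the 120h group (squares). Both share the untreated libraries, and the median of the primary granule list is 1.08 at 72h and -0.11 at 120h while that of the late neutrophil list is 2.52 and 5.58.

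Metabolic genes split by pathway. Of 30 lysosomal genes 27 were lower at 72h and 1 higher (median -1.27). Ctss, cathepsin S, was at 19.7 and 34.1 against 439 and 598 (log2 difference -4.25, SE 0.26, adjusted p = 2.9e-06), and Psap, the precursor of the saposins, at 234 and 248 against 1744 and 1889 (-2.91), with 210.3 and 223 untreated. Of 23 cholesterol synthesis genes 18 were higher and 1 lower (median 1.07). Sqle, squalene epoxidase, was at 48.8 and 50.8 untreated, 57.8 and 55.6 at 72h and 25.5 and 13.6 at 120h (log2 difference 1.55, SE 0.23, adjusted p = 3.0e-04). All 6 cholesterol efflux genes were lower, and Abca1 and Abcg1, the sterol exporters, were at 0.540 and 1.06 and at 4.10 and 3.87 at 72h against 7.17 and 15.1 and 18.0 and 20.9 (-2.69 and -2.03). Their untreated values were 1.56 and 1.57 and 15.8 and 15.9, so in both exporters the 72h libraries were below both other groups.

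Of 19 genes of the Atf4 and amino acid response 13 were higher and 4 lower. The serine synthesis enzymes Phgdh and Psat1 were at 117 and 96.0 and at 182 and 146 at 72h against 17.2 and 7.12 and 36.8 and 17.2 (3.14 and 2.65). The leucine transporter Slc7a5 was at 71.3 and 65.1 against 11.5 and 5.57 (2.93), while the stress factor Ddit3 was at 52.0 and 46.8 and 53.3 and 46.6 and was not called. Among glycolysis genes the balance moved with the scaling, with 14 higher and 1 lower of 21 as deposited and 5 higher and 6 lower after median-of-ratios scaling. Without 72h replicate 2, 9 were higher. Ldha was at 679 and 702 against 372 and 267 (1.13). Of the 11 mitochondrially encoded genes measured, of 13 listed, 9 were higher as deposited (median 0.62) and 1 with median-of-ratios scaling (5 without 72h replicate 2), and nuclear copies can share their reads. Of the mitochondrial genes, mt-Co3, whose difference is that median of 0.62, was at only 1.006 and 1.215 RPKM against 0.375 and 0.371. The uncalled mt-Atp6 was at 0.913 and 1.383 against 0.736 and 0.456. Both lay near the filter level, far under mt-Co1 at 3148 and 3438 against 2809 and 2324. Of 14 stress genes 6 were higher and 3 lower, near the 51% higher and 26.4% lower of all genes tested. The chaperonin Hspd1 was at 358 and 330.1 against 61.0 and 36.9 (2.83) and Hsp90aa1 at 349.7 and 323 against 91.4 and 51.5 (2.28), while Hmox1, heme oxygenase, was at 2.49 and 3.51 against 29.7 and 33.7 (-3.04).

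More survival and death genes were lower than higher with add-back, and chromatin regulators were mixed. Of 19 Bcl2 family and caspase genes 2 were higher and 11 lower (median -0.58), against 51% higher and 26.4% lower of all genes tested. With median-of-ratios scaling 2 were higher and 17 lower, against 4352 and 4997 of all 13004 genes. Mcl1, a survival factor of neutrophils, was at 34.9 and 41.8 against 117 and 163 (-1.82), and Bcl2l11, the death factor Bim, at 3.82 and 4.52 against 14.9 and 18.6 (-1.77), so genes on both sides were lower. Bax and Bak1 were not called, at 0.14 and -0.02, but Bax was called lower with median-of-ratios scaling (-0.29). Of 23 chromatin genes 11 were higher and 5 lower, with a median of 0.35. That is close to all genes tested, of which 51% were higher and 26.4% lower with a median of 0.32. Median-of-ratios scaling gave 9 and 7, and 8 were lower without 120h replicate 1. Ezh2, the Polycomb methyltransferase, was at 46.7 and 49.1 against 21.4 and 14.4 (1.40), Dnmt3b at 4.47 and 4.61 against 0.703 and 0.462 (1.81) and the demethylase Kdm6b at 4.80 and 6.42 against 16.1 and 23.0 (-1.62).

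Among the lists for other lineages only the dendritic cell and MHC class II list had all its tested members called the same way. In the eosinophil, basophil and mast cell list 4 of 13 tested were higher and 6 lower. The lower members included Ear2, at 4.64 and 4.83 against 78.5 and 89.5 (-3.89), and Siglecf, at 12.5 and 17.6 against 46.2 and 46.1 (-1.57). Ear6 was also lower (-1.44). Prg2, the eosinophil major basic protein, was the most abundant, at 12.9 and 36.3 untreated, 234 and 173 at 40h, 1484 and 1306 at 72h and 471 and 250.5 at 120h (log2 difference 2.02, SE 0.45, adjusted p = 0.0035). With array weights it was not called (adjusted p = 0.12). Epx, the eosinophil peroxidase that defines the cell, was at 2.59 and 3.54 and 3.89 and 2.76 and was not called (-0.09), and Ccr3, Il5ra and Fcer1a were under the filter. The basophil protease Mcpt8 was at 10.1 and 12.2 against 0.687 and 0.899 and 45.4 and 52.4 untreated (2.76). Of 12 lymphoid genes 3 were higher and 4 lower, and Cd3e and Pax5 were under the filter. The lower members included Blnk, at 1.15 and 1.29 against 9.46 and 11.45 (-2.36), and Il7r, at 0.246 and 0.421 against 5.20 and 3.89 (-2.05). Cd79a was also lower (-0.93). Rag2, a recombinase of lymphocytes, was at 1.76 and 1.56 against 0.00300 and 0.0120 (1.40), and Ebf1, a B cell factor, at 1.96 and 1.89 against 0.0100 and 0.00700 (1.54), both well under their untreated 30.5 and 28.7 and 23.7 and 24.0. The summed lymphoid RPKM was 324 and 296 untreated, 30.5 and 28.3 at 72h and 48.9 and 50.9 at 120h. Of 7 erythroid and megakaryocyte genes tested 1 was higher and 4 lower, and the globins and Klf1 were under the filter. All 8 dendritic cell and MHC class II genes tested, of 16 listed, were lower. Irf4 and H2-Eb1 were among them and reached RPKM 1 only in the 120h libraries, so the filter set their direction. The MHC class II invariant chain Cd74 was at 7.86 and 19.2 against 234 and 381 (log2 difference -4.49, SE 0.36, adjusted p = 1.1e-05), H2-Aa at 0.563 and 0.702 against 4.82 and 13.1 (-2.47) and H2-DMa at 7.57 and 7.78 against 48.1 and 53.6 (-2.58), while Xcr1, Clec9a and Siglech were under the filter. The share of such cells in the cultures was not tested.

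Some genes set the add-back cells outside all other groups. Both 72h libraries lay above the other 8 in 1978 genes (15.2%) and below them in 996 (7.66%). Furthest above were, beside Elane, Prtn3, Prg2 and Tfec, the genes Far2, Pdcd4, Tfrc and Mid1ip1. Pdcd4, a translation inhibitor, was at 145 and 155 against 28.0 and 29.0 (log2 difference 2.36, SE 0.08, adjusted p = 3.0e-07), with 43.2 and 45.5 untreated and 54.2 and 50.2 at 40h. Tfrc, the transferrin receptor, was at 147 and 150.3 against 31.1 and 21.1 (log2 difference 2.49, SE 0.17, adjusted p = 5.1e-06), with 58.6 and 53.0 at 40h. Mid1ip1, a regulator of fatty acid synthesis, was at 115 and 115 against 45.8 and 37.2, and Far2, which makes fatty alcohols, at 51.9 and 50.4 against 17.2 and 8.77. In these 4 genes both 72h values were at least 2 times the nearest other library.

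Furthest below were Rbpms, Rab37, Tpm4, Marcksl1, Mmp14, S1pr1, Krt80 and Slc2a3. Tpm4, a tropomyosin of the cytoskeleton, was at 56.6 and 55.3 untreated, 30.1 and 34.4 at 40h, 3.43 and 6.49 at 72h and 54.0 and 77.5 at 120h (log2 difference -3.51, SE 0.24, adjusted p = 5.1e-06). Slc2a3, the glucose transporter GLUT3, was at 22.4 and 22.0, 12.4 and 11.6, 2.82 and 3.53 and 49.2 and 58.0 in the same groups (log2 difference -3.71, SE 0.13, adjusted p = 3.6e-07). S1pr1, the receptor that guides cells out of tissues along sphingosine 1-phosphate, was at 5.75 and 5.66, 3.23 and 3.75, 0.412 and 0.554 and 6.46 and 9.68 (-2.59). Rbpms, an RNA-binding protein, was at 1.80 and 1.72 against 11.2 and 13.8 (-2.28), and Mmp14, a membrane metalloprotease, at 0.529 and 0.507 against 3.68 and 8.06 (-2.10), with 35.8 and 30.7 and 42.8 and 43.1 untreated. Tpm4, Slc2a3 and S1pr1 were thus about as high or higher in the 120h group than in untreated cells and low in the add-back cells, whereas Rbpms and Mmp14 were lower than untreated in both.

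Among called genes with a mean of at least 5 RPKM in the higher group, the largest difference upward was in Cnn3, the actin-binding calponin 3, at 113 and 111 untreated, 38.5 and 38.7 at 72h and 0.851 and 0.293 at 120h (log2 difference 4.68, SE 0.15, adjusted p = 2.5e-07). Chchd10, a mitochondrial protein, was at 46.3 and 38.3 against 3.67 and 1.15 (3.77), Samd4, a translational repressor, at 21.1 and 21.8 against 0.936 and 0.649 (3.65) and Mt2, a metallothionein, at 77.0 and 75.6 against 8.15 and 5.08 (3.37). Fkbp11, a folding enzyme of the endoplasmic reticulum, was at 42.4 and 41.3 against 4.54 and 2.08 (3.38), above its untreated 23.6 and 25.8. Cnn3, Chchd10 and Mt2 lay between untreated and 120h, while Samd4 and Fkbp11 lay above both. Among abundant genes, the translation factor Eef1a1 was at 6413 and 5247 and 4409 and 2841 and was not called (0.71 with SE 0.33 and adjusted p = 0.077), but it was called without 120h replicate 1 (1.03) and with quantile normalization (1.41). Actb, beta-actin, was at 979 and 894 against 2948 and 2891 (log2 difference -1.64, SE 0.15, adjusted p = 1.9e-05), with 904 and 908 untreated. Actb at 72h overlapped its untreated range.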

How the data were processed

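RNA from 10 libraries was deposited as RPKM per Ensembl transcript, per the file headers, with 79535 transcripts per library. Per the submitters' processing notes, STAR and the GRCm38 build were used. How reads were counted, with which annotation and whether by strand, is not given in the sources used here. Of these transcripts 77720 (97.7%) matched GENCODE M21, and 1 principal coding transcript stood for each of 26227 genes. Low values were whole multiples of 1 read in every library within 0.02 reads, which gave the denominators. Counts behind each RPKM value limit its precision, with 0.00245 to 0.00288 RPKM for 1 read on 2 kb.

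Genes reaching RPKM 1 in 2 or more libraries, 13004 in all, were tested as log2(RPKM + 1), a pseudocount of 1, by a moderated linear model (R 4.3.3 with limma 3.58.1, eBayes with trend). The 5 groups of 2 libraries shared 1 estimate of the spread, with 5 residual and 3.04 prior degrees of freedom. The test was 2-sided. The pipeline was tested on simulated data. The comparison, gene lists and motifs were chosen with earlier results of these data known, so lists carry counts and medians beside those of all genes and no test of their own. Named genes were Hoxa9, Meis1, Esr1, Lyz2 and Kit, the 12 highest and 12 lowest differences among called genes with a mean of at least 5 RPKM, up to 6 called and 2 uncalled members per list, the 8 genes furthest above and below the other 8 libraries, and the 10 most abundant of each group. Not all are printed. Promoters came from RefSeq.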

Additional observations from a re-analysis of the deposited data

How the results depend on the processing

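Alternatives were other pseudocounts, filters and scalings, fits on the 4 libraries alone, with array weights, with a replicate block, on recovered reads with voom, on sums over transcripts, and without each library. The counts of 6636 higher and 3435 lower genes stayed within 1.5 times under all of them except the higher count with median-of-ratios scaling, 4352. Leaving out single libraries gave 6051 to 6732 higher and 3047 to 3758 lower. The replicate block gave 6837 higher and 3587 lower. With the spread taken from the 72h and 120h groups alone, whose replicates differed most, 5540 were higher and 2822 lower. The pooled spread, which includes the closer pairs of the other groups, thus gave more calls. The labels tie the numbers to no shared culture or day, and deviations of same-numbered libraries correlated at 0.64 between 72h and 120h and at 0.03 to 0.41 elsewhere.

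Every named gene whose sign turned was uncalled as deposited, except Tlr4 (-0.11 with median-of-ratios scaling). With that scaling Bax turned to -0.29 and Cdkn2a to -0.33, and both were called lower. It also turned Ccr2 to -0.20, Erg to -0.24, F13a1 to -0.22, Ly6c1 to -0.37, Ly6c2 to -0.28, Pbx3 to -0.19 and Serpinb1a to -0.23, and the stress and chromatin medians to -0.23 and -0.050. With quantile normalization Bax turned to -0.0065, Cdkn2a to -0.037, Ly6c1 to -0.071, Pbx3 to -0.027 and the stress median to -0.13. The stress median was also -0.0062 with a pseudocount of 0.1 and -0.052 with voom, and the mast cell median was 0.65 with a filter of RPKM 5. Without single libraries Bak1 ran from -0.13 to 0.10, Ddit3 from -0.11 to 0.080, Epx and the mast cell median from -0.28 to 0.10, Esr1 and the estrogen target median from -0.34 to 0.063, Hoxa9 from -0.39 to 0.087, Ly6c1 from -0.14 to 0.27, Ly6c2 from -0.12 to 0.45 and Serpinb1a from -0.14 to 0.57. Median-of-ratios scaling also lowered the median of all genes by 0.34. The causes of these changes were not tested.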
